A study of Mus musculus with 12 samples.

Results

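Crypt base stem cell markers are genes used to recognise the cycling stem cells at the bottom of intestinal crypts. The 8 genes described here (Lgr5, Tnfrsf19, Ascl2, Olfm4, Smoc2, Mex3a, Msi1 and Cd44) were found by their symbols in a table of 30265 genes, and all 8 passed the filter on low values (a normalised count of at least 10 in at least 3 libraries), as did 16577 genes in all. RNA was sequenced from intestinal epithelial cells of C57Bl/6 mice with a Sox9-GFP reporter. The sort gave 4 populations by reporter level, which are Sox9 High, Sox9 Sublow, Sox9 Negative and Sox9 Low, with 3 libraries each (replicates A, B and C) of 12000 cells per library. All 4 populations share the strain and the reporter, and neither the age of the mice nor the number of animals behind a library is given in the sources used here. The gates are levels of a reporter and not cell types. As background, reports on this reporter place secretory cells of the enteroendocrine and tuft lineages in High, transit-amplifying progenitors in Sublow, mature villus cells in Negative and the dividing stem cells in Low.

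Stem cells of the crypt base divide to renew themselves and to supply progenitors, which differentiate as they move up onto the villus. Wnt signals from neighbouring cells, strengthened by R-spondins, keep the stem cell programme on, and several of the 8 genes are Wnt targets or regulate the Wnt response. Others were adopted as markers because antibodies or in situ probes label the crypt base, and some of these also label other cells: Cd44 is found on leukocytes and Msi1 on neural progenitors.

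Libraries held 14452156 to 15822864 reads assigned to genes in High, 14241434 to 17046944 in Sublow, 13390477 to 16520656 in Negative and 11630042 to 15576144 in Low. Values are the authors' normalised read counts (whole reads times 1 factor per library), differences are of log2(value + 1) with the standard error of a limma fit of all 12 libraries, and p-values are adjusted over all 16577 genes. A gene passed at an adjusted p below 0.05. A floor of 3 reads corresponds to 2.38 to 4.61 normalised counts, depending on the library, and covers counting error only. The log2(value + 1) scale understates changes of low genes. Sox9 itself averaged 20262 ± 1220.2 in High, 2084 ± 897 in Sublow, 604 ± 191 in Negative and 6601 ± 921 in Low (SD, n = 3 libraries each). The 3 Sublow libraries differed widely from each other in several gene lists, as given below, and the fit shares 1 spread per gene over the 4 populations. The labels do not say whether the 3 replicates are separate mice, and the p-values then reflect the spread among these libraries, which may be technical. In bulk libraries fewer stem cells in a gate and less RNA per cell cannot be told apart.

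All 8 markers were lower in Negative than in Low. They parted in High. Lgr5, Tnfrsf19, Ascl2, Olfm4, Smoc2 and Mex3a were 3.21- to 17.9-fold lower in High than in Low, whereas Msi1 and Cd44 were at 1.85 and 1.19 times the Low level, differences that did not pass the test. In Low, the highest level per kilobase of exon was that of Olfm4 (20541 ± 3043 normalised counts per kilobase), ahead of Cd44 (509.9 ± 65.8) and Smoc2 (415 ± 55.3), whose libraries overlapped. Lgr5 (241 ± 75.0) and Msi1 (196 ± 20.7) followed and overlapped each other, then came Ascl2 (136 ± 34.4), and last Tnfrsf19 (78.8 ± 22.3) and Mex3a (63.6 ± 7.48), which again overlapped (SD, n = 3 libraries each).

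**Figure D1:**
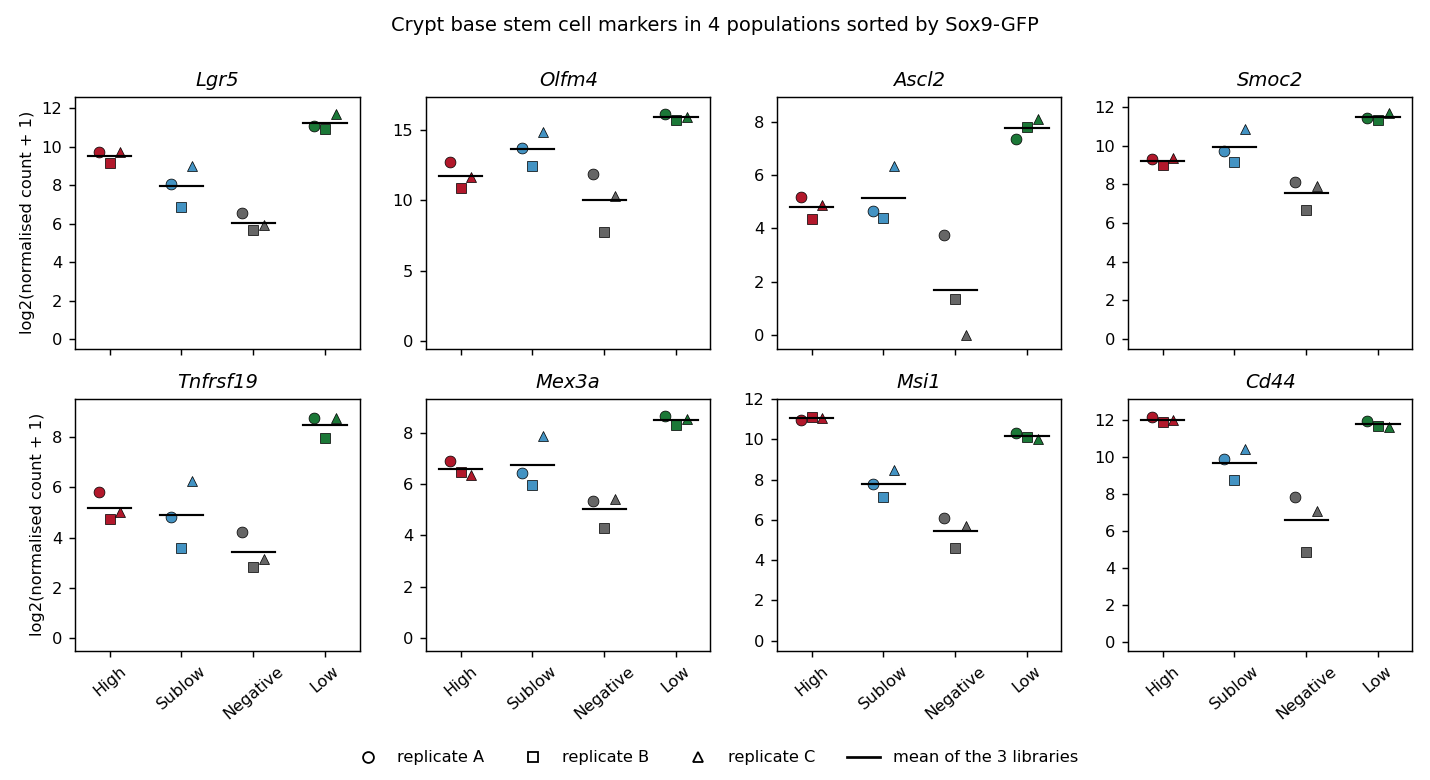
Each panel plots 1 marker as log2(normalised count + 1) in the High, Sublow, Negative and Low libraries (symbols give the replicate, the bar the mean of 3 libraries). Low is highest in 6 panels, whereas in those of Msi1 and Cd44 the High libraries are level with or above the Low libraries.

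Lgr5 encodes the receptor for R-spondins that marks the crypt base stem cell and strengthens Wnt signalling. It measured 853, 573 and 853 in High replicates A, B and C, 264, 115 and 519 in Sublow, 92.9, 49.2 and 59.3 in Negative, and 2150.3, 1923 and 3354 in Low. No libraries of different populations overlapped, and the order from high to low was Low, High, Sublow and Negative. Each neighbouring step passed the test. High was lower than Low (log2 difference -1.68 ± 0.44, adjusted p = 0.00864), High was higher than Sublow (1.57 ± 0.44, adjusted p = 0.0102), and Sublow was higher than Negative (1.94 ± 0.44, adjusted p = 0.0104). Sublow replicates differed 4.51-fold from the lowest to the highest, against 1.89-fold in Negative and 1.74-fold in Low.

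Tnfrsf19, also called Troy, is a receptor of the tumour necrosis factor family that is a Wnt target in intestinal stem cells and has been reported to dampen Wnt signalling. Its values were 55.0, 25.8 and 31.3 in High replicates A, B and C, 27.6, 11.2 and 76.4 in Sublow, 18.0, 6.15 and 7.99 in Negative, and 430.3, 252 and 438 in Low. The Low libraries lay above all 9 others, and the High and Sublow libraries overlapped. Negative rested on 17, 4 and 7 reads. The difference from Low was -3.32 ± 0.59 in High (adjusted p = 0.000789) and -3.60 ± 0.59 in Sublow (adjusted p = 0.00152). The Sublow difference was -4.28 without Sublow replicate C and -2.95 without Sublow replicate B. High and Sublow themselves did not separate (0.28 ± 0.59, adjusted p = 0.720). Against Negative, High was higher (1.77 ± 0.59, adjusted p = 0.0233). This call was lost without High replicate A, Negative replicate B or Negative replicate C (adjusted p = 0.0908, 0.0817 and 0.0663) and with quantile scaling (0.182). Sublow did not pass against Negative (1.49 ± 0.59, adjusted p = 0.0795), but passed with library weights (adjusted p = 0.0364), with DESeq2 (0.0149), and when Sublow replicate B or Negative replicate A was left out (0.00872 and 0.0487).

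RefSeq (GRCm38.p6) lists a pair of promoters for Tnfrsf19. The one shown, at chr14:61037938-61038237 on the minus strand (250 bases before to 50 after the start), is the only one of the 6 promoters found for 5 of the markers that holds a motif searched for. The capitals mark ATCAAAG, which is the TCF/LEF-type motif CTTTGAT read on the other strand, and the E-box CAGCTG.
Tnfrsf19: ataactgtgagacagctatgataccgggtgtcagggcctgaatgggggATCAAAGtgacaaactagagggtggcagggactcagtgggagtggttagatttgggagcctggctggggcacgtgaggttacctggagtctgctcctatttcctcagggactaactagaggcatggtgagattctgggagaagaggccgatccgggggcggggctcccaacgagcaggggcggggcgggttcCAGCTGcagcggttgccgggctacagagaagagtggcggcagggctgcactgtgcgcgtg
Searched on both strands of all 32851 promoters of this length, CTTTGAT occurred in 3.73%, CTTTGAA in 5.14% and CAGCTG in 16.3%. A match describes letters and is not evidence of binding.

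Ascl2 encodes a transcription factor of the basic helix-loop-helix class that is a Wnt target and controls stem cell fate in the crypt. Its values were 35.2, 19.4 and 28.7 in High replicates A, B and C, 24.5, 20.1 and 80.0 in Sublow, 12.7, 1.54 and 0 in Negative, and 163, 223 and 275 in Low. The Low libraries lay above all others, High and Sublow overlapped, and Negative held 12, 1 and 0 reads, so that replicates B and C were under the floor of 3 reads. High was lower than Low by a log2 difference of -2.95 ± 0.78 (adjusted p = 0.00905) and Sublow by -2.62 ± 0.78 (adjusted p = 0.0297). The Sublow call was lost without Sublow replicate A or B (adjusted p = 0.0924 and 0.109) and without Low replicate A, B or C (0.0599, 0.0702 and 0.0960), and with a pseudocount of 0.5 (0.0565). The difference was -3.22 without Sublow replicate C. The difference of Negative from Low was -6.05 ± 0.78 (adjusted p = 4.81e-05) and moved with the pseudocount, to -4.73 at a pseudocount of 5, and with the library left out, to -7.09 without Negative replicate A and -5.20 without Negative replicate C. High and Sublow did not separate (-0.33 ± 0.78, adjusted p = 0.750).

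The promoter of Ascl2 (chr7:142969215-142969514, minus strand, GRCm38.p6), the transcription factor among the markers, holds none of the 3 motifs in its 300 bases and 67.0% G or C, against a median of 52.7% over all promoters.
Ascl2: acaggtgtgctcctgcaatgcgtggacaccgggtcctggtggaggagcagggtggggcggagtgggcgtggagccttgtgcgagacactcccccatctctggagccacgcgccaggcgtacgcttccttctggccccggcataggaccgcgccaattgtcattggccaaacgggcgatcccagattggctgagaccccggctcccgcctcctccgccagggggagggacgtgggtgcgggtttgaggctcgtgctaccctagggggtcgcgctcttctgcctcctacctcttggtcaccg

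Olfm4 encodes a secreted glycoprotein and is among the most abundant transcripts of crypt base stem cells in the small intestine. Its values were 6590.3, 1830.0 and 3175 in High replicates A, B and C, 13101, 5432 and 28492 in Sublow, 3733, 218 and 1271 in Negative, and 70067, 52059 and 60403 in Low. Low lay above all other libraries, High overlapped both Sublow and Negative, and the Negative libraries differed 17.1-fold. High was lower than Low (log2 difference -4.16 ± 0.86, adjusted p = 0.00197), and Negative was lower than Low (-5.90 ± 0.86, adjusted p = 0.000106; -6.84 without Negative replicate A and -4.79 without Negative replicate B). Sublow measured 25.8% of the Low mean and did not pass (-2.25 ± 0.86, adjusted p = 0.0773), although its libraries did not overlap those of Low. It passed with quantile scaling, library weights and the 6 libraries alone (adjusted p = 0.0321, 0.00605 and 0.0278) and without Sublow replicate C or Negative replicate A or B (adjusted p = 0.0328, 0.0372 and 0.0183). High was below Sublow in mean, at 3865 ± 2454 against 15675 ± 11743, a difference that did not pass (-1.91 ± 0.86, adjusted p = 0.0809). It passed with DESeq2, library weights and the 6 libraries alone (adjusted p = 0.0328, 0.0121 and 0.0380) and without Sublow replicate B, Negative replicate A or Negative replicate B (0.0350, 0.0382 and 0.0189). In GENCODE vM21, exons of Olfm4 overlap those of the long non-coding RNA Gm6999 on the same strand, which has no row of its own in the table, so reads there cannot be told apart.

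The promoter of Olfm4 (chr14:80000052-80000351, plus strand, GRCm38.p6), the most abundant of the markers per kilobase in all 4 populations, also holds none of the 3 motifs.
Olfm4: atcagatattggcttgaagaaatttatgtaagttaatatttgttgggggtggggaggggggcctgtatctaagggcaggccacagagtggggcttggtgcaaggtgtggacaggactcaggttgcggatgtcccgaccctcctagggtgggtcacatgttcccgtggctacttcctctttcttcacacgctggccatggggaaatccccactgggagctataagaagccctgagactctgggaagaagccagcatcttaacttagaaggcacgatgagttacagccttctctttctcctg

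Smoc2 encodes a secreted calcium-binding protein of the matrix. It measured 645, 511 and 656 in High replicates A, B and C, 862, 572 and 1874 in Sublow, 279.8, 99.96 and 239.6 in Negative, and 2745, 2586 and 3317 in Low. Low lay above and Negative below all other libraries, with High and Sublow overlapping between them. High was lower than Low by a log2 difference of -2.25 ± 0.41 (adjusted p = 0.000911), and Sublow by -1.56 ± 0.41 (adjusted p = 0.0170; 0.0719 without Sublow replicate B, 0.0563 without Sublow replicate A and 0.0627 without Low replicate C). Sublow was higher than Negative (2.36 ± 0.41, adjusted p = 0.00371).

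Mex3a encodes an RNA-binding protein reported to mark slowly cycling Lgr5-positive cells. It measured 120.0, 87.5 and 81.9 in High replicates A, B and C, 85.8, 61.5 and 237 in Sublow, 40.1, 18.5 and 42.2 in Negative, and 405, 320.3 and 376 in Low. As with Smoc2, Low lay on top, Negative at the bottom, and High and Sublow overlapped between them. The difference from Low was -1.93 ± 0.44 in High (adjusted p = 0.00369), -1.75 ± 0.44 in Sublow (adjusted p = 0.0132; 0.0562 without Sublow replicate B and 0.0506 without Low replicate A) and -3.49 ± 0.44 in Negative (adjusted p = 4e-05). Mex3a kept 9.15% of its Low mean in Negative, and Smoc2 7.16%, the highest shares among the 8 markers, where Ascl2 kept 2.15%. The microRNA gene Mir1905 overlaps an exon of Mex3a on the opposite strand and has no row in the table.

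Msi1 encodes Musashi, an RNA-binding protein that regulates translation and is used as a marker of stem cells and early progenitors. It measured 1969, 2207 and 2115 in High replicates A, B and C, 218, 139.8 and 357 in Sublow, 67.6, 23.1 and 50.2 in Negative, and 1271, 1093 and 1043 in Low. No libraries of different populations overlapped, and High was on top. The excess of High over Low did not pass (log2 difference 0.89 ± 0.36, adjusted p = 0.0669), and its call depended on the test. The adjusted p was 0.0287 with edgeR, 0.0167 with DESeq2, 0.0331 without the Sublow libraries and 0.000213 in a fit of the 6 High and Low libraries alone, with a range of 0.000213 to 0.152 over all alternatives. High was 9.41-fold above Sublow (3.23 ± 0.36, adjusted p = 1.33e-05) and 47.7-fold above Negative (5.58 ± 0.36, adjusted p = 9.46e-08).

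Cd44 encodes a receptor for hyaluronan and is a Wnt target present throughout the proliferating crypt. It measured 4501, 3715 and 4109.6 in High replicates A, B and C, 919, 430.4 and 1341 in Sublow, 224, 27.7 and 134 in Negative, and 3963, 3273 and 3129 in Low. The High and Low libraries overlapped, and both lay above Sublow, which lay above Negative. High and Low did not separate (log2 difference 0.25 ± 0.60, adjusted p = 0.765, and 0.130 to 0.864 over the alternatives). High was higher than Sublow (2.34 ± 0.60, adjusted p = 0.00568) and than Negative (5.42 ± 0.60, adjusted p = 7.23e-06; 4.56 without Negative replicate B and 6.04 without Negative replicate A). Sublow was lower than Low (-2.08 ± 0.60, adjusted p = 0.0242), a call lost without Sublow replicate A or B (adjusted p = 0.0517 and 0.101) and without Low replicate A, B or C (0.0785, 0.0529 and 0.0590). Isoforms of Cd44 were not separated in the table.

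For contrast with Ascl2 and Olfm4, the promoter of Cd44 (chr2:102901616-102901915, minus strand, GRCm38.p6) is shown. It holds none of the 3 motifs either.
Cd44: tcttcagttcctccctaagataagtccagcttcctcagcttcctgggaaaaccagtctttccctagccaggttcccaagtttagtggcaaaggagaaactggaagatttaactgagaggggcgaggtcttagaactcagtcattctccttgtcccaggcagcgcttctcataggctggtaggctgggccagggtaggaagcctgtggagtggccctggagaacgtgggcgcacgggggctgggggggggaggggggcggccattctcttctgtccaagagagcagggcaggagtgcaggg

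The comparison of High with Low set the gate with the most reporter against the gate described as the stem cell one. Of the 8 markers 6 fell and none rose, with a median log2 difference of -2.09, against 0.10 over all genes tested. Over all genes, 19.3% fell and 23.6% rose. The libraries of High lay entirely below those of Low for those 6 markers, against 26.4% of all genes, and entirely above for Msi1, against 34.3% of all genes. The largest fall was that of Olfm4 and the smallest that of Lgr5. Enteroendocrine and tuft markers moved with this comparison. The 8 enteroendocrine markers summed to between 369093 and 579260 in High and between 38168 and 76202 in Low, and the 8 tuft markers to between 94438 and 98966 against between 8935 and 15027. Their part in the marker levels was not tested.

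The comparison of Sublow with Low set the gate described as progenitor against the stem cell one. Of the 8 markers 7 fell and Olfm4 did not pass, with a median of -2.30 against -0.06 over all genes. Over all genes, 10.7% fell and 13.3% rose. All 8 markers had no overlap between the Sublow and the Low libraries, against 18.7% of all genes in that direction. The number that fell dropped to 3 without Sublow replicate B and to 4 without Sublow replicate A, Low replicate A or Low replicate C, and Lgr5, Tnfrsf19 and Msi1 passed in every alternative run. Over all genes, 3979 passed, against 2503 without Sublow replicate B and 2520 without Low replicate A. When all libraries were scaled to the same total, 3263 genes fell and 1306 rose, against 1778 and 2201 as deposited, and the 7 markers fell in that scaling too.

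In the comparison of Negative with Low, all 8 markers fell without overlap of libraries (35.0% of all genes in that direction), with a median of -5.13 against -0.05 over all genes. Over all genes, 30.3% fell and 26.8% rose, and 8049 fell and 2441 rose when libraries were scaled to the same total, against 5028 and 4446 as deposited. The mean levels in Negative ranged from 2.15% of Low for Ascl2 to 9.15% for Mex3a. Lgr5 fell 36.5-fold (-5.19 ± 0.44, adjusted p = 4.95e-06), Msi1 25.8-fold (-4.69 ± 0.36, adjusted p = 3.05e-06) and Cd44 36.0-fold (-5.17 ± 0.60, adjusted p = 2.28e-05; -4.30 without Negative replicate B and -5.79 without Negative replicate A). The count of 8 was the same in every alternative run.

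High against Negative compared both gates described as differentiated. Of the 8 markers 7 were higher in High, each without overlap of libraries (34.0% of all genes in that direction), and Olfm4 did not pass (1.73 ± 0.86, adjusted p = 0.107). The Olfm4 difference was 0.63 without Negative replicate B (adjusted p = 0.468) and 2.67 without Negative replicate A (0.0130), and 2.22 when scaled to the same total (0.0499). Over all genes, 28.8% were higher and 25.8% lower, and 7423 were higher and 2588 lower when scaled to the same total, against 4776 and 4278 as deposited. The median of the markers was 2.44, against 0.03 over all genes. With quantile scaling 5 of the 8 passed, the calls of Tnfrsf19 and Mex3a being lost (adjusted p = 0.182 and 0.0604). Lgr5 was 11.4-fold higher in High (3.51 ± 0.44, adjusted p = 2.4e-05) and Ascl2 8.58-fold (3.10 ± 0.78, adjusted p = 0.00478; 4.13 without Negative replicate A and 2.25 without Negative replicate C).

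Sublow against Negative gave 7 of 8 markers higher in Sublow, with Tnfrsf19 not passing. Over all genes, 15.1% were higher and 12.7% lower, and 3829 were higher and 610 lower when scaled to the same total, 2042 and 1120 with quantile scaling and 2686 and 1309 with edgeR, against 2500 and 2097 as deposited. The median of the markers was 2.35, against -0.04 over all genes, and 7 markers had no overlap between libraries, against 18.9% of all genes. The calls differed between fits. In a fit of the 6 Sublow and Negative libraries alone, limma called none of the 8 markers (adjusted p = 0.0698 for Msi1 to 0.203 for Tnfrsf19) and 46 genes in all, whereas edgeR and DESeq2 on 12 libraries called 7 and 8 markers. Over all genes, 4597 passed, against 2767 without Sublow replicate A, 2188 without Sublow replicate C and 1748 without Negative replicate B. Olfm4 (3.64 ± 0.86) moved between 2.54 without Negative replicate B and 4.58 without Negative replicate A, Ascl2 (3.43 ± 0.78) between 2.58 without Negative replicate C and 4.47 without Negative replicate A, and Cd44 (3.09 ± 0.60) between 2.22 without Negative replicate B and 3.71 without Negative replicate A. Mex3a lost its call without Negative replicate B (adjusted p = 0.0683).

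In High against Sublow, the number of markers that were higher was near the share of all genes. Of the 8, 3 were higher in High (Lgr5, Msi1 and Cd44), each without overlap of libraries (30.6% of all genes in that direction), and none was lower, with a median of 0.05, against 0.03 over all genes. Over all genes, 26.7% were higher and 25.3% lower, and 5430 were higher and 3166 lower when scaled to the same total, against 4421 and 4201 as deposited. The 5 others overlapped between libraries, with log2 differences of -1.91 to 0.28. Without Sublow replicate B, Olfm4 (-2.52, adjusted p = 0.0350) and Smoc2 (-1.08, adjusted p = 0.0410) were lower in High, and with library weights Smoc2 was at -0.52 (adjusted p = 0.0473).

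**Figure D2:**
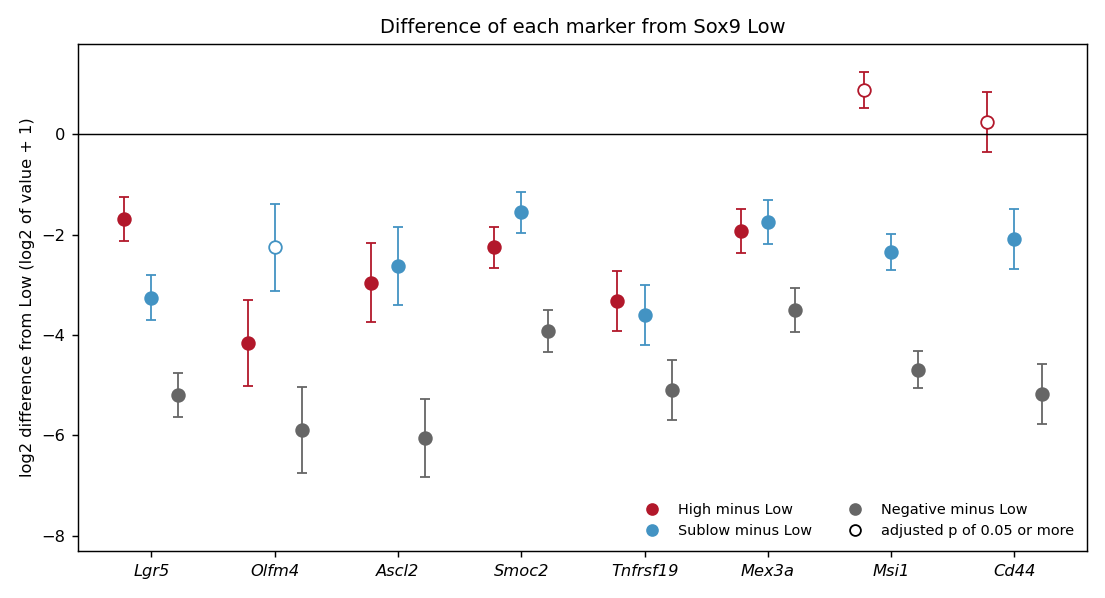
Log2 differences of High, Sublow and Negative from Low for each marker, with standard errors of the limma fit (open circles, adjusted p of 0.05 or more). In High, 6 markers lie between -4.16 and -1.68 and Msi1 and Cd44 above 0; in Negative all 8 lie between -6.05 and -3.49.

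The 3 comparisons with Low share the same Low libraries, so their values stand side by side and were not correlated. Of the 8 markers, 5 (Lgr5, Ascl2, Smoc2, Tnfrsf19 and Mex3a) were higher in Low than in each of the other 3 populations, against 1.10% of all genes tested. None was highest in High by that test, against 15.6% of all genes, nor in Sublow (0.0603%) or Negative (9.33%). For Msi1, all High libraries lay above all other libraries, but the step over Low did not pass (limma, adjusted p = 0.0669). That step passed in some alternatives, such as edgeR (adjusted p = 0.0287) and DESeq2 (0.0167), and not in others. The count of 5 depended on single libraries and on the scaling or fit. With Olfm4 added it was 6 with quantile scaling, library weights and the 6 libraries alone. The same 6 were found without Sublow replicate C, Negative replicate A or Negative replicate B. In these runs 0.923% to 6.54% of all genes were highest in Low. The count was 4 with a pseudocount of 0.5 (1.06% of all genes) and without Low replicate B (0.545%). It was 2 (Lgr5 and Tnfrsf19) without Sublow replicate B, and 3 without Sublow replicate A, Low replicate A or Low replicate C, where 0.370%, 0.570%, 0.357% and 0.455% of all genes were highest in Low. Lgr5 and Tnfrsf19 were highest in Low by that test in every alternative that held all 4 populations.

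How the markers changed relative to each other was asked within each library, where a factor per library largely cancels out. The log2 level of each marker minus that of Lgr5 was compared over the 4 populations by an exact permutation test of the F statistic over all 369600 assignments of the libraries, with 7 tests adjusted by the Benjamini-Hochberg method. The ratio differed among populations for 6 of the 7 markers. All 7 tests share Lgr5, so a change of Lgr5 itself enters every ratio. The share of all genes whose ratio to Lgr5 differs was not tested. Ascl2 did not pass (exact p = 0.10, adjusted p = 0.10), but passed without Negative replicate A or C (adjusted p = 0.00807 and 0.0299), with a pseudocount of 5 (0.00709) and with quantile scaling (0.0387).

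Msi1 minus Lgr5 was 1.49 ± 0.40 in High, -0.18 ± 0.42 in Sublow, -0.58 ± 0.43 in Negative and -1.09 ± 0.52 in Low (SD of the log2 difference; exact permutation p = 0.00221, adjusted p = 0.00773). Cd44 minus Lgr5 was 2.45 ± 0.22 in High, 1.68 ± 0.28 in Sublow, 0.54 ± 1.17 in Negative and 0.52 ± 0.54 in Low (exact permutation p = 0.0160, adjusted p = 0.0225). For both, the High libraries lay above all Low libraries. The call for Cd44 was lost without any 1 of the High libraries (adjusted p = 0.0544 to 0.0768).

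Smoc2 and Mex3a moved against Lgr5 in another way. Smoc2 minus Lgr5 was -0.32 ± 0.13 in High, 1.95 ± 0.31 in Sublow, 1.53 ± 0.50 in Negative and 0.25 ± 0.24 in Low (exact permutation p = 0.000325, adjusted p = 0.00227). Mex3a minus Lgr5 was -2.96 ± 0.36 in High, -1.21 ± 0.37 in Sublow, -1.01 ± 0.47 in Negative and -2.71 ± 0.39 in Low (exact permutation p = 0.00416, adjusted p = 0.00784). In Sublow and Negative both genes were higher relative to Lgr5 than in any Low library. In Sublow this also held for Olfm4, Msi1 and Cd44, whereas in Negative it held for Smoc2 and Mex3a alone.

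Olfm4, Tnfrsf19, Ascl2, Smoc2 and Mex3a had their lowest mean relative to Lgr5 in High. Olfm4 minus Lgr5 was 2.17 ± 0.68 in High, 5.65 ± 0.12 in Sublow, 3.95 ± 1.64 in Negative and 4.65 ± 0.44 in Low (exact permutation p = 0.0229, adjusted p = 0.0267; lost without High replicate B or C, adjusted p = 0.0653 and 0.0544). Tnfrsf19 minus Lgr5 was -4.36 ± 0.40 in High, -3.07 ± 0.28 in Sublow, -2.62 ± 0.27 in Negative and -2.73 ± 0.35 in Low (exact permutation p = 0.00448, adjusted p = 0.00784). Every High library lay below every Low library for Olfm4, Tnfrsf19, Ascl2 and Smoc2, while High and Low overlapped for Mex3a.

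**Figure D3:**
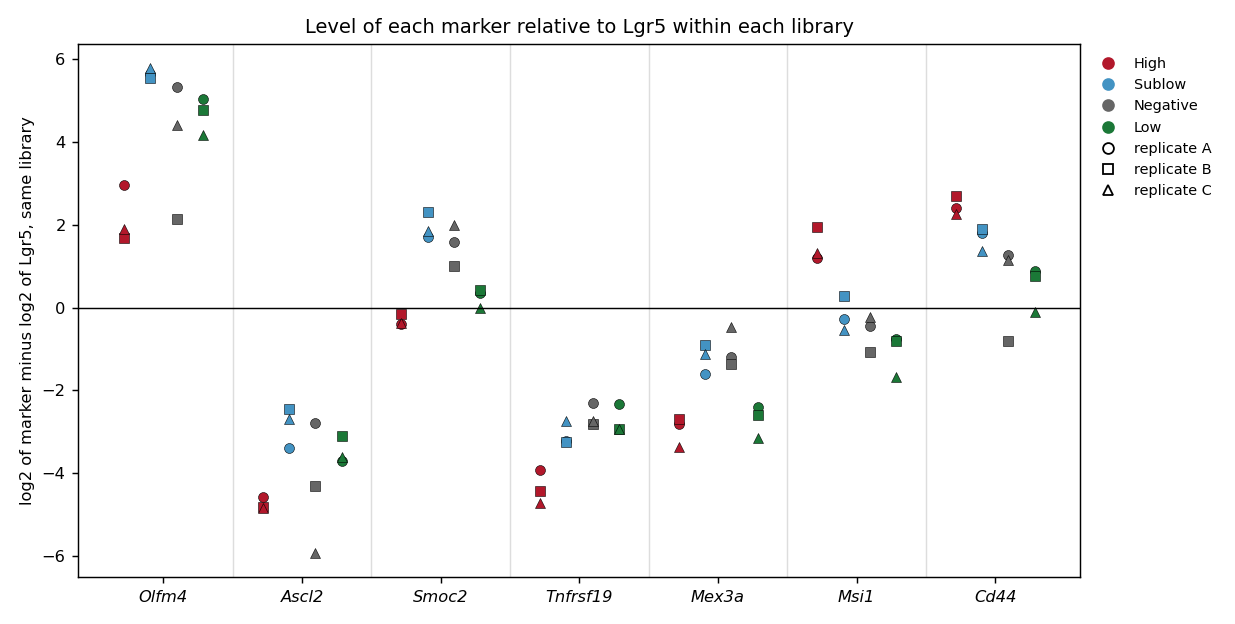
For each library, log2(value + 1) of a marker minus that of Lgr5, by population (colours) and replicate (symbols). High lies below Low for Olfm4, Tnfrsf19, Ascl2 and Smoc2 and above Low for Msi1 and Cd44. Sublow and Negative lie above Low for Smoc2 and Mex3a, and Sublow also for Olfm4, Msi1 and Cd44.

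Within Sublow the markers moved together from library to library. All 8 had the order replicate C, then A, then B, an order that 26.8% of all genes tested shared. The spread from lowest to highest ran from 2.55-fold for Msi1 to 6.84-fold for Tnfrsf19. The 12 mitotic genes summed to 33384 in replicate A, 23125 in B and 39336 in C, and the 10 enterocyte markers to 264675, 537165 and 87649. The library with the highest markers thus had the most mitotic and the least enterocyte transcript. Replicate C also had the highest Sox9 level of the 3. In Negative, replicate A was highest for 7 of the 8 markers, as for 30.2% of all genes, and 6 markers had the order A, C, B, as did 17.8% of all genes. Replicate A of Negative had the most mitotic transcript (11686, against 3097 in B and 7164 in C) and the lowest enterocyte sum (664299, against 1017376 in B and 688313 in C). The part of the makeup of these libraries in the marker levels was not tested.

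**Figure D4:**
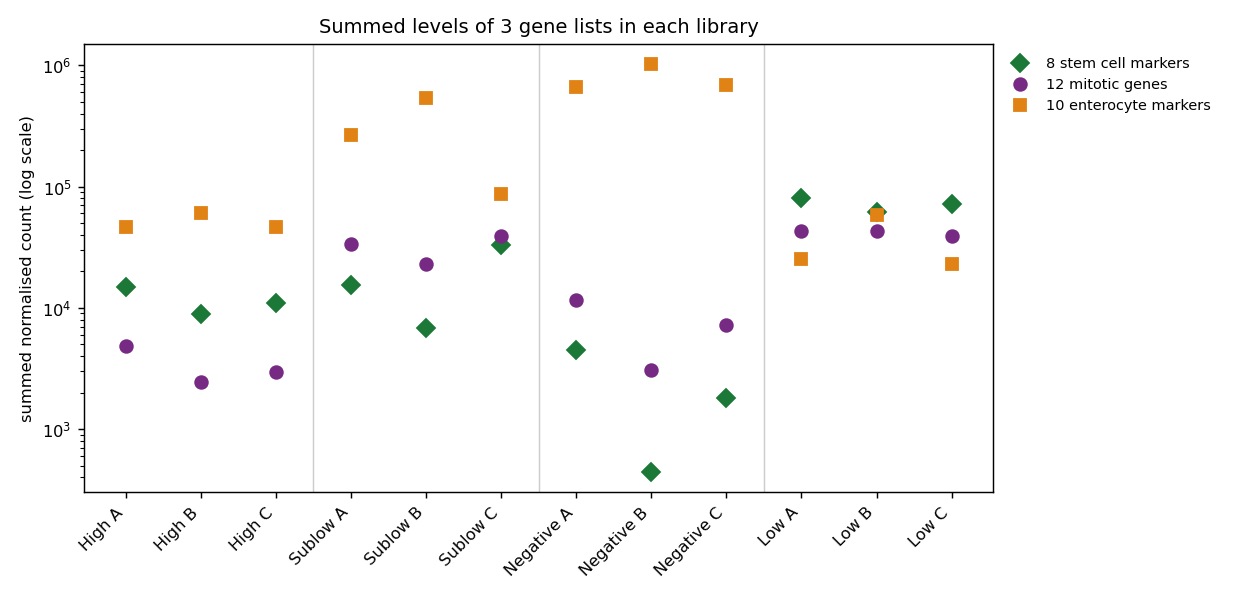
Summed normalised counts (log scale) of the 8 stem cell markers, 12 mitotic genes and 10 enterocyte markers in each library. Olfm4 makes up most of the marker sum in every Low and every Sublow library. In Sublow the sum is highest in replicate C and lowest in B, where the enterocyte markers are highest.

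Other genes described in crypt base stem cells were counted in the same way. Of 20 such genes, all of which passed the filter, 16 fell and none rose in High against Low (median -1.42, against 0.10 over all genes). In Sublow against Low 15 fell and none rose (median -1.27), and in Negative against Low 18 fell and none rose (median -2.64). The shares of all genes that fell in these comparisons were 19.3%, 10.7% and 30.3%, and those that rose 23.6%, 13.3% and 26.8%. The E3 ligases Rnf43 and Znrf3, which remove Wnt receptors from the cell surface and are countered by R-spondin, were lower in High than in Low by -2.41 ± 0.16 (adjusted p = 1.05e-06) and -0.96 ± 0.22 (adjusted p = 0.00406). Axin2, a feedback inhibitor induced by Wnt, differed by -1.81 ± 0.25 (adjusted p = 0.000148). The 4 that did not pass in High were Prom1 (-0.42), Soat1 (-0.58), Ephb2 (-0.45) and Fstl1 (0.10). Cdk6, a kinase of the G1 phase, averaged 160 in High, 627 in Sublow, 175 in Negative and 1570 in Low. In High against Negative, 8 of the 20 were higher and 2 lower (median 0.66), where 7 of the 8 markers were higher and none lower (median 2.44). The shares of all genes there were 28.8% higher and 25.8% lower. In Sublow against Negative, 15 of the 20 were higher and none lower (median 1.30), against 15.1% and 12.7% of all genes. In High against Sublow, 8 of the 20 were lower and 2 higher, Soat1 and Ephb3 (median -0.28). None of the 8 markers was lower there and 3 were higher (median 0.05), and 25.3% of all genes were lower and 26.7% higher.

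Relatives from the same gene families were also followed. Of 14 relatives, 10 passed the filter, and in High against Low 2 fell and 4 rose (median 0.11). Over all genes, 19.3% fell and 23.6% rose (median 0.10), so the relatives as a set were near this background. Lgr4, which like Lgr5 binds R-spondins, averaged 1481 in High, 3305 in Sublow, 2775 in Negative and 3423 in Low and was lower in High than in Low (-1.21 ± 0.15, adjusted p = 7.27e-05), but did not pass in Sublow (-0.06 ± 0.15) or Negative (-0.32 ± 0.15). Msi2, the relative of Msi1, rose in High against Low (0.64 ± 0.19, adjusted p = 0.0176) and fell in Sublow and Negative (-1.07 and -1.47). Olfm1 (2.53 ± 0.49, adjusted p = 0.00139), Smoc1 (2.48 ± 0.51, adjusted p = 0.00197) and Mex3b (1.28 ± 0.36, adjusted p = 0.0126) were higher in High than in Low, where Olfm4, Smoc2 and Mex3a were lower. Mex3c did not pass in any of the 3 comparisons with Low (-0.13, 0.07 and 0.09).

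By the root mean square difference of centred log2 values over the 12 libraries, Smoc2 and Mex3a were the most alike of the markers (0.31), followed by Msi1 and Cd44 (0.50), and Olfm4 and Msi1 the least alike (2.21). Among other genes with a mean of at least 100, the 3 nearest to Lgr5 were Sorbs2 (0.57), Slco3a1 (0.70) and Fmnl2 (0.71). Nearest to Olfm4 were the ion cotransporter Slc12a2 (0.66), the urea transporter Slc14a1 (0.67) and Prelp (0.71), and nearest to Ascl2 were Pxdn (0.73), Nap1l1 (1.01) and Dpysl5 (1.10). Smoc2 lay closest to Rps6ka6 (0.27), Ctps (0.35) and the water channel Aqp4 (0.38). Mex3a lay closest to Aqp4 (0.34), Notch1 (0.34) and Iffo2 (0.36), and Tnfrsf19 to Slc1a2 (0.80), Notch1 (0.93) and Clca3b (0.98). Msi1 lay closest to the phospholipase Pla2g4a (0.32), Maged1 (0.37) and the receptor Fgfr4 (0.39), and Cd44 to Sorcs2 (0.28), Cnn3 (0.39) and Ceacam10 (0.40). The nearest genes were chosen for likeness to the marker over these same libraries, so a shared highest population largely follows from the choice. All 3 genes nearest to Msi1 and all 3 nearest to Cd44 had their highest mean in High, and those nearest to the other 6 markers in Low.

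Markers of cells outside the epithelium, Paneth and goblet markers and mitotic genes were also summed. Their part in the levels of Cd44, Smoc2 and Msi1 was not tested. The 8 T cell markers summed to between 466 and 615 in High and between 328 and 601 in Sublow. They summed to between 616 and 682 in Negative and between 395 and 475 in Low, mostly from Cd3d. Of the 8, only Trac was at 0 in Sublow. None of the 5 tested differed between High and Low. The 7 myeloid markers summed to between 75.2 and 139.8 in High and between 171 and 224 in Low (1 rose and 3 fell). Of the 7, only C1qa was at 0 in Sublow and in Negative. The 10 stromal and muscle markers summed to between 3049 and 4755 in High, between 207 and 298 in Sublow, between 316 and 362 in Negative and between 571 and 1172 in Low. Vim made up most of the High sum. Dcn and Lum were the only 2 of the 10 at 0 in High and in Sublow. Col1a2 was at 81.9 to 136 in High and 97.5 to 200 in Sublow. The 8 neuron and glia markers summed to between 1637 and 1929 in High and between 391 and 563 in Low, most of it Ret. The 8 Paneth markers summed to between 498 and 4467 in High and between 18875 and 45257 in Low. Their sums were between 12645 and 18377 in Sublow and highest in Negative, between 46473 and 121890. The 8 goblet markers summed to between 8472 and 12346 in High and between 143592 and 487789 in Low. Their sums were between 343558 and 599602 in Sublow and between 51308 and 109948 in Negative. In mitotic genes, whose 12 members all fell in High against Low, the sums were between 2430 and 4873 in High and between 39408 and 43259 in Low. In Sublow they were between 23125 and 39336, and none of the 12 passed against Low.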

How the data were processed

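The authors deposited 1 table with a normalised read count per gene symbol and library, a signal with no log scale; its 12 columns were matched to libraries by population and number. Libraries were made, per the labels, from total RNA of 12000 sorted cells after ribosomal RNA depletion (Clontech Total RNA Pico kit, single-end). Aligner, counter, build, annotation and the method behind the scaling: not given in the sources used here. In every library 100% of values were whole multiples of 1 step (tolerance 0.01), so reads were recovered by division. Differences were tested on log2(value + 1) with limma 3.58.1 (trend, R 4.3.3, prior degrees of freedom 4.10), 1 fit of 12 libraries, Benjamini-Hochberg adjustment within each comparison. On recovered reads, edgeR 4.0.16 (quasi-likelihood, TMM) called 7357 genes for High against Low, 4169 for Sublow against Low, 9460 for Negative against Low, 9066 for High against Negative, 3995 for Sublow against Negative and 8770 for High against Sublow, and DESeq2 1.42.0 called 7714, 4755, 9677, 9300, 5330 and 9067. Exon lengths come from GENCODE vM21. Likeness was ranked over genes tested with a mean of at least 100, leaving out predicted and unnamed genes. The limma, edgeR and DESeq2 fits were tried on simulated counts with changes in High only, and only for High against Low. The simulation used the same dispersion for all genes and libraries, so uneven replicates as in Sublow and Negative were not covered. The exact permutation test was tried on simple values with a known answer. The markers, lists, tests and alternatives were chosen with earlier results of these data known. Genes outside the 8 markers and the nearest genes are named from fixed lists.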

Additional observations from a re-analysis of the deposited data

How the results depend on the processing

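Differences of the 8 markers from Low kept their direction in every alternative run (other pseudocounts, filters, scalings, variance models, edgeR, DESeq2, fewer libraries). Directions turned for 3 differences between High and Sublow that did not pass. Tnfrsf19 was at -0.26 with quantile scaling, -0.050 with edgeR and TMM, -0.068 with edgeR and DESeq2 size factors, -0.046 with DESeq2, and -0.37 to 0.97 without 1 library at a time. Ascl2 was at 0.13 with library weights and -0.70 to 0.27 without 1 library at a time (0.27 without Sublow replicate C). Mex3a was at 0.018 scaled to the same total, 0.20 with library weights and -0.58 to 0.38 without 1 library at a time (0.38 without Sublow replicate C). With library weights, 7880 genes passed for Sublow against Low (3979 in the reported fit), 6939 for Sublow against Negative (4597) and 5 markers and 11077 genes for High against Sublow (3 and 8622). In fits of the 6 libraries compared, 2473 genes passed for Sublow against Low, and 46 genes and 0 markers for Sublow against Negative. The cause was not tested. Without 1 library at a time, 3 to 8 markers passed for Sublow against Low, 3 to 5 for High against Sublow, 6 to 8 for Sublow against Negative and 8 for Negative against Low; over all genes the counts ran from 2503 to 5604 for Sublow against Low and from 1748 to 6247 for Sublow against Negative. Scaling to the same total moved the median of all genes by -0.27 (Sublow against Low), -0.55 (Negative against Low), 0.48 (High against Negative), 0.28 (Sublow against Negative) and 0.20 (High against Sublow).

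The replicate letters were tried as a block. Deviations of same-letter libraries correlated at 0.0521 to 0.341 (mean 0.156), over 0.1 in 13 of 18 pairs. Deviations were taken from the population means, so the mean for other letters (-0.078) largely follows from the same-letter mean. The rule used for pairing asked for over 0.1 in every pair, so the letters were not taken as pairing the libraries. All 12 libraries correlated best with their own letter, a hint from the data that same-letter libraries share some variation. With the replicate block 7 markers and 8027 genes passed for High against Low (6 and 7110 without it), 8 and 5002 for Sublow against Low (7 and 3979), 8 and 10006 for Negative against Low (8 and 9474), 8 and 9701 for High against Negative (7 and 9054), 8 and 6030 for Sublow against Negative (7 and 4597), and 4 and 9373 for High against Sublow (3 and 8622). The calls gained were Msi1 for High against Low (adjusted p = 0.0345), Tnfrsf19 for Sublow against Negative (0.0276), and Olfm4 for Sublow against Low (0.0134), High against Negative (0.0237) and High against Sublow (0.0157); none was lost. Genes with few reads (Ascl2 and Tnfrsf19 in Negative) are limited by depth.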
